A study of Mus musculus with 4 samples.

Results

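Endothelial cells, the cells that line blood vessels, were a small class within the 10X libraries of cells sorted from hindlimb muscle as satellite cells, the stem cells of skeletal muscle. The 387 endothelial cells were chosen by their RNA, out of 20850 cell barcodes with 1000 to 5000 genes and at most 8% mitochondrial transcripts in the 4 libraries together. A barcode was taken as endothelial when it had at least 1 UMI (a counted RNA molecule) in 4 or more of 8 genes, *Cdh5*, *Kdr*, *Pecam1*, *Flt1*, *Gpihbp1*, *Cldn5*, *Emcn* and *Egfl7*, with at most 1 UMI of the satellite cell gene *Pax7* and none of the glial gene *Sox10* or the leukocyte gene *Ptprc*. The levels of those genes in these cells follow from that choice and are given as a description.

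The study set dystrophic mice of a mild and a severe background beside their healthy controls. B10 mice (strain C57BL/10ScSn, 15 weeks old) are the control of *mdx* mice (C57BL/10ScSn-Dmdmdx, 11 weeks), and DBA mice (DBA/2, 13 weeks) are the control of D2-*mdx* mice (D2.B10-Dmdmdx, 14 weeks), so both dystrophic strains carry the *mdx* allele of the dystrophin gene *Dmd* and the controls do not. Each strain gave 1 library from the pooled lower hindlimb muscles of 2 mice, sorted for ITGA7 and VCAM and against CD11b, SCA1, CD45 and CD31. CD31 is the product of *Pecam1* and SCA1 that of *Ly6a*, both surface proteins of muscle endothelium, so the sort was set against the cells described here and their number is that of cells which passed it. With 1 library for each strain, no difference between libraries has a replicate check, and strain, age, pool of mice, sort and library cannot be told apart. Every interval below is a 95% exact interval that covers counting error only, and the UMIs of a library come from few cells.

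Endothelial cells form the inner wall of arteries, capillaries and veins, and in skeletal muscle most of them belong to the capillaries that run along the fibres. They receive growth signals of the VEGF family through the receptors encoded by *Kdr* and *Flt1*, seal their contacts with VE-cadherin (*Cdh5*) and claudin-5 (*Cldn5*), and pass fatty acids from blood to muscle with the help of lipoprotein lipase (*Lpl*), its anchor *Gpihbp1* and the fatty acid carriers *Cd36* and *Fabp4*. Pericytes and smooth muscle cells, together called mural cells, wrap around them and are often isolated with them.

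Endothelial genes are known to be read by transcription factors of the ETS family, *Erg* and *Fli1* among them, which bind DNA around a GGAA core. The 250 bases before the transcription start are shown for the 4 selecting genes with a single promoter in the RefSeq table used here (build GRCm38.p6), because these genes define the class. They are Kdr (chr5:75978456-75978705, minus strand), Flt1 (chr5:147726012-147726261, minus strand), Cldn5 (chr16:18776597-18776846, plus strand) and Emcn (chr3:137340828-137341077, plus strand), each written 5′ to 3′ on the gene's strand, with matches to AGGAAG or its reverse CTTCCT in capitals.
Kdr: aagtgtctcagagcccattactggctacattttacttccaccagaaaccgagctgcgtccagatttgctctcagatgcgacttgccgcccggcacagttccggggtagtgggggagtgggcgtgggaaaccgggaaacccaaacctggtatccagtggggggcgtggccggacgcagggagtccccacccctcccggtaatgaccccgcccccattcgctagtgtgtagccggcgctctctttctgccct
Flt1: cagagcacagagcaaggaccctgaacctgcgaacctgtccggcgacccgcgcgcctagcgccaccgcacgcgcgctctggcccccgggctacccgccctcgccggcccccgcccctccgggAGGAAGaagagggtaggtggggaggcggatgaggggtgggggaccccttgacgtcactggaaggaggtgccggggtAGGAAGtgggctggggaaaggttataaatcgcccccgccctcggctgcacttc
Cldn5: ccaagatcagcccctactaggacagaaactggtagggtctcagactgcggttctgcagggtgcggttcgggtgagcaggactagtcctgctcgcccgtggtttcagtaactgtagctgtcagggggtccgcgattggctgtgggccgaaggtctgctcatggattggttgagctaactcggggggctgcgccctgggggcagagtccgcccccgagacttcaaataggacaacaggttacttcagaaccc
Emcn: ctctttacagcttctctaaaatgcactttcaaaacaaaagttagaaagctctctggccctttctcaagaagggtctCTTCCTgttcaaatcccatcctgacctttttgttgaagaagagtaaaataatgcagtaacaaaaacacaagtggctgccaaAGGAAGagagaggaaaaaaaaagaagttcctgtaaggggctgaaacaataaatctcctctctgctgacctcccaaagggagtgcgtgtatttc
The *Flt1* and *Emcn* stretches held 2 matches each, and those of *Kdr* and *Cldn5* held 0. The RefSeq table used here held promoters of 5 of the 8 genes, 7 in all, and 4 of those 7 held AGGAAG on either strand (57.1%), beside 9686 of all 32851 mouse promoters of the same length (29.5%). Among 24 further endothelial genes that the selection did not use, 7 of 16 promoters held it (43.8%). The other spelling searched, CCGGAA or its reverse TTCCGG, was in 1 of the 7 (14.3%), 1 of the 16 (6.25%) and 12.0% of all. A match is a string of letters and not a measured binding site.

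The endothelial cells were mostly those of the dystrophic libraries. They numbered 13 of 4762 barcodes in B10 (0.273%, interval 0.145 to 0.466) and 264 of 6669 in *mdx* (3.96%, 3.50 to 4.45), and 8 of 3370 in DBA (0.237%, 0.103 to 0.467) and 102 of 6049 in D2-*mdx* (1.69%, 1.38 to 2.04). Both dystrophic shares lay above both control shares, and the *mdx* share lay above that of D2-*mdx*, with intervals that did not overlap. The limits on cells removed far more of the B10 library than of any other. They kept 4762 of its 9931 barcodes, against 3370 of 3539 for DBA, 6669 of 7173 for *mdx* and 6049 of 6782 for D2-*mdx*. Among the barcodes removed, 7 from B10 met the marker part of the selection, beside the 13 kept. The *mdx* library had 17 such barcodes beside its 264, D2-*mdx* 15 beside its 102 and DBA 0. The cause of the B10 loss was not tested. A share of sorted cells moves with every other cell in the sort: satellite cells, those with 2 or more *Pax7* UMIs and no more than 1 selecting gene, were 93.5% of barcodes in B10 and 54.5% in *mdx*, and 79.4% in DBA and 50.6% in D2-*mdx*. Set against mural cells, which passed the sort as well, there were 14.3 endothelial cells per 100 mural cells in B10 and 43.8 in *mdx*, and 1.95 in DBA and 11.8 in D2-*mdx*. With mural cells as the base, the value of B10 (13 endothelial and 91 mural cells) lay above that of D2-*mdx* (102 and 867). No interval was computed for these values, so that order is not read as a difference. Whether the gate was set alike for each library is not known, and its part in these shares was not tested.

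**Figure D1:**
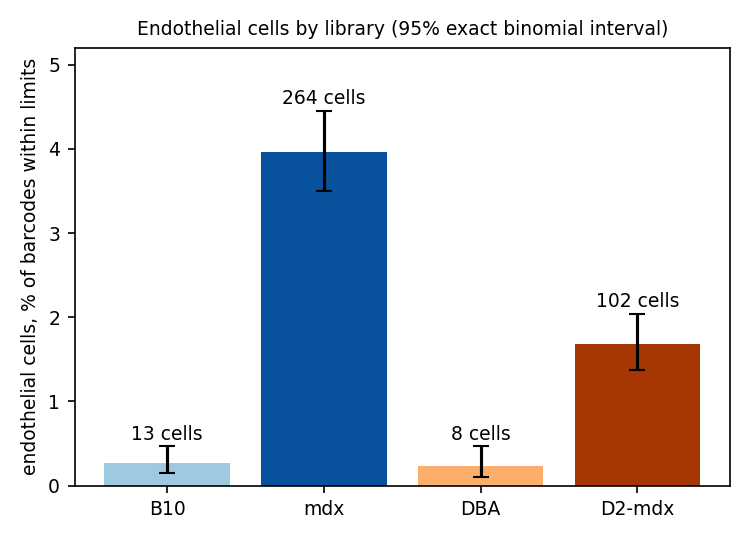
Endothelial cells as a percent of barcodes within the limits (vertical axis) in each of the 4 libraries (horizontal axis); bars start at 0, lines are 95% exact binomial intervals and the number of cells stands above each bar. The bars of *mdx* (3.96%) and D2-*mdx* (1.69%) stand above those of B10 (0.273%) and DBA (0.237%).

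The depth behind these cells was uneven. The endothelial cells held 111722 UMIs in B10 and 2328543 in *mdx*, and 93448 in DBA and 881929 in D2-*mdx*. A cell had a median of 5848, 7540, 11426.5 and 7421 UMIs in the same order. The median mitochondrial share was 3.69% in B10 and 2.21% in *mdx*, and 3.42% in DBA and 2.31% in D2-*mdx*. All levels of genes are given as CPM, the UMIs of a gene per 1000000 UMIs of the endothelial cells of that library, so a gene with 1 UMI stands at 8.95 CPM in B10 and 10.7 in DBA. The pairs of libraries shared between 5 and 16 barcodes, and no barcode was an endothelial cell in 2 libraries.

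The name of these cells was checked on markers outside the selection, since the selecting genes were present by choice. As a description, all 8 selecting genes were found in 9 of the 13 B10 cells, 168 of the 264 *mdx* cells, 6 of the 8 DBA cells and 67 of the 102 D2-*mdx* cells. Summed, the 8 genes stood at 12110 CPM in B10 and 8245 in *mdx*, and 10530 in DBA and 8398 in D2-*mdx*. In the satellite cells of the same libraries, which could hold no more than 1 of them by definition, they stood at 3.88, 12.2, 7.86 and 13.7 CPM. With every cell thinned to 3000 UMIs, *Cdh5* was found in 252 of the 264 *mdx* endothelial cells (95.5%; 98.9% unthinned) and 16 of 3632 *mdx* satellite cells (0.441%; 0.936% unthinned), which restates how both classes were chosen. Of the markers outside the selection, all 24 further endothelial genes had UMIs in every library, together 10696 CPM in B10 and 8202 in *mdx*, and 9438 in DBA and 7322 in D2-*mdx*, the most abundant being *Ptprb*, a phosphatase of endothelial junctions. At the edge of the selection, 36 barcodes with 3 of the 8 genes were left out and 7 with 4 were kept. Of the 36, 28 had UMIs in 3 or more of 8 mural genes, with 2267 UMIs of *Rgs5* between them against 9 of *Cdh5*, and of the 7 kept, 5 had. A further 43 barcodes had 4 or more of the genes and were left out, 33 of them for *Pax7*, 7 for *Sox10* and 6 for *Ptprc*.

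Markers of other cell types had UMIs in part of these cells. Free RNA can give such UMIs: *Rgs5*, a pericyte gene, had a UMI in 21.6% of *mdx* endothelial cells and 6.22% of *mdx* satellite cells, and in 37.3% and 12.8% in D2-*mdx*, all thinned to 3000 UMIs, and the part of free RNA in what follows was not tested. UMIs in 3 or more of the 8 mural genes were found in 0 of 13 B10 cells, 20 of 264 *mdx* cells (7.58%, interval 4.69 to 11.5), 0 of 8 DBA cells and 19 of 102 D2-*mdx* cells (18.6%, 11.6 to 27.6). In *mdx* those 20 cells had a median of 14031 UMIs, against 7203.5 in the others, and in D2-*mdx* the 19 had 7935 against 7300. The 12 pericyte markers summed to 116 CPM in B10 and 1039 in *mdx*, and 225 in DBA and 1432 in D2-*mdx*, led by *Rgs5* in each, with the defining markers *Abcc9*, *Pdgfrb* and *Cspg4* at 0 in both controls and at 0 in neither dystrophic library. The 10 smooth muscle markers summed to 71.6, 711, 96.3 and 848 CPM in the same order, led by *Mylk* in the controls, *Acta2* in *mdx* and *Tagln* in D2-*mdx*. The 12 fibroblast markers stood at 53.7, 192, 150 and 457 CPM, led by *Gsn* in B10 and by *Col3a1* in the others. The 12 myogenic markers were of like level, 313, 426, 278 and 391 CPM, led everywhere by *Dag1*, which many cell types express. *Pax7* itself was at 0 in B10, with 17, 1 and 9 UMIs in *mdx*, DBA and D2-*mdx*. White blood cell markers were low, 35.8, 18.5, 53.5 and 112 CPM.

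Haemoglobin RNA set one library apart. The 5 erythrocyte genes stood at 17.9 CPM in B10 and 487 in *mdx*, and 81778 in DBA and 11208 in D2-*mdx*, led by *Hbb-bs* in the last 3. In the satellite cells of the same libraries they stood at 24.3, 582, 298 and 815 CPM. In DBA this was 1 of the 8 cells, with 7639 haemoglobin UMIs, 63.0% of its RNA, and the 7 others had 0. In D2-*mdx*, 44 of 102 cells had such a UMI and the cell with the most held 33.8% of them. The DBA endothelial cells were therefore also compared without that cell and without the haemoglobin genes, and the effect is given beside the counts of genes.

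**Figure D2:**
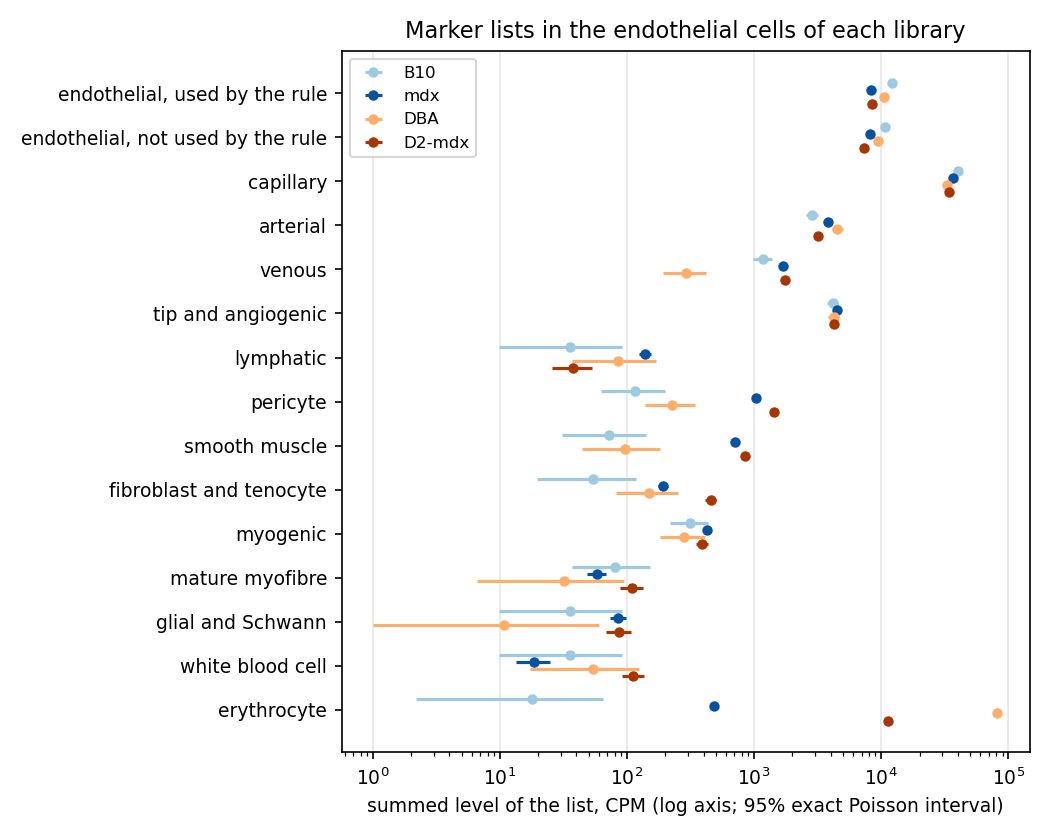
Summed level of each marker list (rows) in the endothelial cells of each library, in CPM on a log axis, with 95% exact Poisson intervals. The endothelial and capillary lists lie close together in the 4 libraries, while the pericyte and smooth muscle lists are higher in *mdx* and D2-*mdx* (1039 and 1432 CPM for pericyte markers) than in B10 and DBA (116 and 225 CPM).

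The most abundant RNA of these cells, over all libraries together, was that of *Fabp4*. *Fabp4*, a fatty acid carrier, stood at 22887 CPM in B10 and 26281 in *mdx*, and 21145 in DBA and 26661 in D2-*mdx*. In DBA, *Malat1* (33484 CPM), *Hba-a1* (36095 CPM) and *Hbb-bs* (40076 CPM) lay above it, and in D2-*mdx*, *Malat1* did (29517 CPM). Over all cells it was followed by *Malat1*, a nuclear non-coding RNA, *Tmsb4x*, an actin-binding peptide, and the matrix proteins *Sparc* and *Igfbp7*. *Cd36*, the fatty acid receptor, stood at 2828, 2344, 2793 and 1971 CPM. *Gpihbp1*, which selected the cells, stood at 2157, 1694, 1841 and 1760 CPM. The capillary list of 15 genes summed to 39858 CPM in B10 and 37013 in *mdx*, and 32820 in DBA and 34352 in D2-*mdx*, with *Fabp4* the most abundant member in each.

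The genes of the sort were found as RNA in part. *Ly6a*, which encodes the SCA1 antigen that the sort excluded, stood at 2873 CPM in B10 and 2706 in *mdx*, and 1348 in DBA and 1866 in D2-*mdx*, with a UMI in 13 of 13, 260 of 264, 8 of 8 and 99 of 102 cells. *Ly6a* and its near copy *Ly6c1* can share reads, so their levels are uncertain. *Pecam1* stood at 904, 899, 878 and 921 CPM. *Itga7*, on whose product the sort selected, was at 0 in both controls, at 11.2 CPM in *mdx* and at 18.1 in D2-*mdx*, and *Vcam1*, the other selecting antigen, was at 0 in both controls, at 60.1 CPM in *mdx* (48 of 264 cells) and at 51.0 in D2-*mdx* (20 of 102 cells). So the antigen excluded was abundant as RNA and the antigens selected were scarce. The amounts of protein on these cells were not measured.

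*Dmd*, the gene mutated in both dystrophic strains, had 3 UMIs in B10 and 53 in *mdx*, and 6 in DBA and 29 in D2-*mdx* (26.9, 22.8, 64.2 and 32.9 CPM). The 3′ tag lies away from the mutation, so these counts do not check the labels. *Utrn*, which encodes the dystrophin-like protein utrophin, was more abundant, 421 CPM in B10 and 377 in *mdx*, and 589 in DBA and 291 in D2-*mdx*.

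Against their neighbours in the sort, the cells were set apart by transcription factors, junction proteins and receptors. A gene entered a comparison with 20 or more UMIs in the 2 groups of cells and 50 CPM in at least one, and was called when the levels differed at least 2-fold and the counting interval of the ratio left out 1. Because the cells, and the mural and satellite cells too, were chosen by RNA, these counts describe the choice and are not tests. In *mdx*, 706 of 3957 genes were called higher in endothelial than in mural cells (17.8%) and 604 lower (15.3%), and in D2-*mdx* 632 (16.2%) and 576 (14.8%) of 3898. Against satellite cells, 979 of 3910 genes were called higher (25%) and 511 lower (13.1%) in *mdx*, and 849 (22.3%) and 480 (12.6%) of 3812 in D2-*mdx*. All 22 of the further endothelial genes that entered were called higher in *mdx* against both, with a median log2 ratio of 7.79 over mural and 9.34 over satellite cells.

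The largest ratios over satellite cells in *mdx* were those of *Slc28a2*, a nucleoside transporter, at 100 CPM against 0.0317 (1 UMI, log2 ratio 11.63, interval 9.14 to 16.94), and of *Erg*, the ETS factor of endothelial identity, at 166 against 0.0634 CPM (2 UMIs, 11.36, 9.49 to 14.41). *Sox17* and *Sox18*, transcription factors of vessel development, stood at 304 and 219 CPM against 0.190 and 0.127. *Cd93*, an endothelial surface receptor, stood at 767 against 0.444 CPM. Over mural cells, *Cyyr1* (443 against 0.197 CPM), the junction protein *Jam2* (437 against 0.197) and *Car4*, a carbonic anhydrase of capillaries (338 against 0.197), had ratios as large as the selecting genes. *Flt1* was the exception among the selecting genes, at 162 CPM in *mdx* mural cells, which were chosen to hold at most 1 of the 8 genes, and it was the gene of the 8 most often found in barcodes just outside the selection, in 31 of 36.

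Immune-facing genes were part of this profile. All 16 interferon-stimulated genes that entered were called higher than in satellite cells of *mdx*, beside 25% of all genes, with a median log2 ratio of 3.33 beside 0.16 over all genes that entered, and 7 of 16 were called higher than in mural cells, beside 17.8% (median 0.61 beside 0.07). *Ifitm3*, an antiviral membrane protein, stood at 3834 CPM against 528 in satellite cells. All 10 antigen presentation genes that entered were called higher than in satellite cells, beside the same 25%, among them the class I genes *H2-K1* (1336 against 123 CPM) and *H2-D1* (1942 against 241 CPM), which can share reads with one another and with other class I genes. By contrast, of 20 immediate-early and dissociation genes 10 were called lower than in satellite cells (beside 13.1% of all genes) and 2 higher (beside 25%), and all 11 myogenic markers that entered were called lower.

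Grouped without reference to the libraries, the 387 cells formed 5 clusters, of which 1 could be called arterial-like and 1 venous-like from their markers. The arterial-like cluster, 41 cells, had *Gja5*, *Alpl*, *Fbln5* and *Stmn2* among its 10 leading genes by fold and 8 of the 16 arterial markers among its first 20. *Gja4*, a connexin of arterial endothelium, stood at 655 CPM there and between 23.2 and 261 in the other clusters. *Sema3g*, an arterial secreted protein, stood at 384 CPM against 8.45 to 97.9. *Hey1*, a Notch target of arteries, stood at 360 CPM against 39.4 to 115. *Fbln5*, a protein of elastic fibres, stood at 558 CPM against 7.75 to 138. Conversely *Aqp1*, the water channel, was at 62.0 CPM in this cluster and between 680 and 2708 in the others, and *Car4* had a UMI in 24.4% of its cells against 39.7 to 83.6%.

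The venous-like cluster, 68 cells, was led by *Selp*, which encodes the leukocyte adhesion protein P-selectin and had UMIs in 26.5% of its cells, with 1 UMI in all other clusters together. *Lrg1*, *Plvap*, a protein of the diaphragms of fenestrae and caveolae, and *Tmem252* were also among its 10 leading genes. *Plvap* stood at 1018 CPM against 32.5 to 271 elsewhere, *Lrg1* at 974 against 19.8 to 165, and *Vwf*, von Willebrand factor, at 231 against 20.5 to 72.9. *Ackr1*, the chemokine-binding protein of venules, had UMIs in 17.6% of these cells and, elsewhere, in 1.28% of 1 cluster. These levels describe how the clusters were drawn and none is a test.

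The other clusters were left without a name. The cells of 1 cluster, 48 in all, were led by *Slc7a2*, *Agtr1a*, *Lhfp*, *Ednra*, *Lmod1* and *Steap4*, and the pericyte list stood at 5849 CPM in it against 231 in the others. Its *Rgs5* level was 3595 CPM and its *Pdgfrb* level 257, while *Cdh5* stood at 795 CPM with a UMI in 91.7% of the cells. It held 33 of the 39 cells with 3 or more mural genes and 9 of the 27 with a *Pax7* UMI, its median depth was 10050.5 UMIs, and its cells came from *mdx* (27) and D2-*mdx* (21). The 2 remaining clusters, with capillary genes such as *Rgcc*, *Car4*, *Lpl* and *Timp4*, parted by library. Of the 152 cells of one, 135 were of *mdx* and 12 of B10, and its leading genes included *Timp4*, *Trim12a* and *Xdh*. Of the 78 cells of the other, 63 were of D2-*mdx*, 11 of *mdx* and 4 of DBA, and its leading genes included *Tpm3-rs7*, *6330403K07Rik* and *Gm10709*, which differ between the *mdx* and D2-*mdx* libraries in other cells as well. When each gene was centred within its library, no cluster matched the second of these. The sizes of clusters are therefore not read as differences between libraries.

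**Figure D3:**
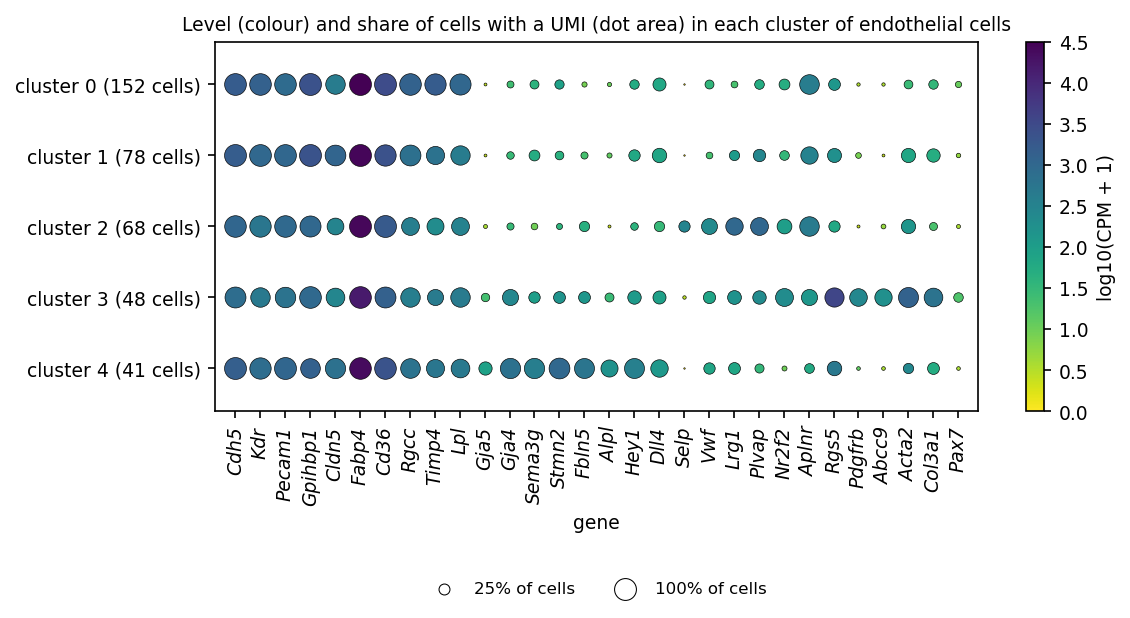
Endothelial, capillary, arterial, venous and mural genes (horizontal axis) in the 5 clusters of endothelial cells (rows). Colour is the level as log10(CPM + 1) and dot area the percent of cells with a UMI. *Gja4*, *Sema3g*, *Stmn2* and *Fbln5* stand out in cluster 4 (arterial-like, 41 cells), *Selp*, *Lrg1* and *Plvap* in cluster 2 (venous-like, 68 cells), and *Rgs5*, *Pdgfrb* and *Abcc9* in cluster 3 (48 cells).

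Dystrophic and control endothelial cells were then compared on each background. In *mdx* over B10, 159 of 3955 genes were called higher (4.02%) and 296 lower (7.48%), and in D2-*mdx* over DBA, 224 (5.68%) and 291 (7.38%) of 3942. The median log2 ratio of all genes was -0.11 and -0.05. These counts lean on the scaling and on single cells: with TMM factors they were 255 higher and 203 lower in *mdx* over B10, where the share called higher moved from 34.9% to 55.7% and the median to 0.06, and 311 higher and 230 lower in D2-*mdx* over DBA (43.5% to 57.5%, median 0.05). With the haemoglobin-rich DBA cell left out, 154 were called higher and 360 lower, and with the haemoglobin genes left out, 155 and 352 (median -0.15). Directions of single genes are given for the scaling by total UMIs. Those of the named results that turned under another setting, and the haemoglobin genes, are listed in the closing section.

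Among the receptors of vessel growth, *Flt1* was called lower in both dystrophic libraries under the scaling by total UMIs. With TMM factors its ratios fell short of 2-fold in both, as did that of *Kdr* in D2-*mdx* over DBA. *Flt1*, VEGF receptor 1, stood at 2712 CPM in B10 and 1228 in *mdx* (log2 ratio -1.14, interval -1.31 to -0.97) and at 1894 CPM in DBA and 916 in D2-*mdx* (-1.05, -1.28 to -0.80). It was the only one of 11 VEGF, angiopoietin and apelin receptors called in *mdx* over B10, a share near the 7.48% of all genes called lower. *Kdr*, VEGF receptor 2, stood at 1745 and 905 CPM on the B10 background (-0.95, -1.16 to -0.73) and at 1573 and 760 on the DBA background (-1.05, -1.31 to -0.78). *Ptprb* stood at 2193 and 1205 CPM, and at 1830 and 833 (-1.13, -1.38 to -0.89). In D2-*mdx* over DBA, *Flt1*, *Kdr*, *Ptprb* and *Flt4* of 12 receptors were called lower (beside 7.38% of all genes), and *Aplnr*, the apelin receptor, higher (beside 5.68%), from 32.1 to 287 CPM. Without the cells holding 3 or more mural genes, *Ptprb* stood at 921 CPM in D2-*mdx*, which fell short of 2-fold below DBA. The 3 UMIs of *Aplnr* in DBA came from 1 of 8 cells. *Flt1* and *Kdr* are also genes of the selection, in which 1 UMI of either counted toward the 4 genes a cell needed, so their levels are in part set by it. Of the 10 listed ligands, *Apln* (9 UMIs in 1 DBA cell) and *Angpt2* (8 UMIs in 4 DBA cells) were called lower in D2-*mdx* over DBA, beside 7.38% of all genes. In *mdx* over B10 a single ligand entered and it was not called.

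Of the transcription factors of endothelial identity, *Fli1* and *Gata2* were called lower in both comparisons under the scaling by total UMIs. In *mdx* over B10, 4 of 21 were called lower (beside 7.48% of all genes) and none higher, with a list median of -0.76 beside -0.11 over all genes. These were *Fli1* (600 and 297 CPM, log2 ratio -1.01, interval -1.38 to -0.63), *Gata2* (188 and 75.6), *Sox7* (152 and 68.3) and *Tcf15*, a factor of fatty acid uptake in muscle capillaries (1352 and 645, -1.07, -1.31 to -0.82). With TMM factors, *Fli1*, *Sox7* and *Tcf15* fell short of 2-fold in *mdx* over B10, while *Gata2* stayed called. For D2-*mdx* over DBA, *Fli1* (492 and 231 CPM, -1.09, -1.56 to -0.60) and *Gata2* (193 and 62.4) were called lower among 19 (10.5%, beside 7.38% of all genes), and none higher. The list median there was -0.45 beside -0.05, and with TMM factors *Fli1* fell short of 2-fold there too. *Pdgfb*, the endothelial signal that recruits mural cells, was called lower in both (376 and 140 CPM, and 161 and 56.7), as was *Smad7*, an inhibitor of TGF-beta signalling (331 and 155 CPM, and 246 and 85.0). *Smad7* was the only one of 12 BMP and TGF-beta genes called lower in each comparison (8.33%), a share near that of all genes. *Tgfbr2* of that list was called higher in D2-*mdx* over DBA, at 126 CPM against 10.7 (1 UMI). With TMM factors *Smad7* fell short of 2-fold in *mdx* over B10.

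The Notch pathway marks arteries and restrains sprouting. In D2-*mdx* over DBA, *Notch1*, *Hes1*, *Hey1* and *Nrarp* of 10 were called lower, beside 7.38% of all genes, and none higher (*Notch1* from 353 to 130 CPM, log2 ratio -1.44, interval -2.01 to -0.83). In *mdx* over B10, *Hey1* was called higher, 17.9 and 109 CPM, and *Dll1* lower, of 8, beside 4.02% and 7.48%. The *Hey1* level of B10 rests on 2 UMIs (log2 ratio 2.60, interval 0.73 to 5.66). Of the 12 arterial markers that entered in *mdx* over B10, *Edn1*, *Fbln5*, *Gja4*, *Hey1*, *Sema3g* and *Stmn2* were called higher and none lower, beside 4.02% of all genes, each with 1 to 8 UMIs in B10 and all but *Hey1* and *Stmn2* in 1 of its 13 cells (list median 1.01). In D2-*mdx* over DBA, *Alpl*, *Hey1* and *Stmn2* of 13 were called lower, beside 7.38%, and none higher (median -0.65). The difference between the comparisons was not tested. In so few control cells, the mix of vessel types and the level within a type cannot be told apart.

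Among venous markers only *Lrg1* was called higher in both dystrophic libraries, and its 13 B10 UMIs came from 1 cell. Called higher were 4 of 11 in *mdx* over B10 (*Lrg1*, *Selp*, *Tmem252* and *Vcam1*, beside 4.02% of all genes) and 3 of 8 in D2-*mdx* over DBA (*Aplnr*, *Lrg1* and *Plvap*, beside 5.68%), and none lower. *Vcam1* is not particular to veins here: in the satellite cells of *mdx* it stood at 624 CPM, against 60.1 in the endothelial cells. *Plvap* had 1 UMI in DBA and stood at 567 CPM in D2-*mdx*, in 42 of 102 cells (log2 ratio 5.73, interval 3.24 to 11.03). *Tmem252* had no UMI in either control and stood at 175 CPM in *mdx* and 61.2 in D2-*mdx*. Against 3 UMIs in B10, its log2 ratio was at least 2.71. The venous list as a whole summed to 1164 CPM in B10 and 1685 in *mdx*, and 289 in DBA and 1754 in D2-*mdx*, and 54.6% of its B10 UMIs came from 1 cell. Of 14 capillary markers, 3 were called lower in *mdx* over B10 (*Aqp1*, *Timp4* and *Tcf15*, beside 7.48% of all genes) and 2 in D2-*mdx* over DBA (*Btnl9* and *Lpl*, beside 7.38%), and none higher. *Aqp1* stood at 4690 CPM in B10 and 1742 in *mdx* (-1.43, -1.56 to -1.29), and *Timp4* at 2121 and 897 (-1.24, -1.44 to -1.04). *Lpl* went from 1113 CPM in DBA to 342 in D2-*mdx* (-1.70, -2.03 to -1.36). *Lpl* was not particular to endothelial cells there: in satellite cells it stood at 2017 CPM in DBA and 433 in D2-*mdx*.

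Of 11 fatty acid genes, 2 were called lower in *mdx* over B10 (*Acsl1* and *Tcf15*, beside 7.48% of all genes), and 1 higher and 1 lower in D2-*mdx* over DBA (*Fabp5* and *Lpl*, beside 5.68% and 7.38%). *Fabp5*, a further carrier, stood at 760 and 2084 CPM in DBA and D2-*mdx* (1.46, 1.11 to 1.82) and at 1208 and 1987 CPM in B10 and *mdx*. *Acsl1*, which activates fatty acids, had 6 UMIs in B10 and 42 in *mdx*. The list as a whole had a median of -0.35 and -0.06 in the 2 comparisons. Of 11 genes of vessel tone and caveolae in *mdx* over B10, *Nos3*, the endothelial nitric oxide synthase, was called lower (152 and 64.0 CPM, -1.25, -1.98 to -0.43), a share near the 7.48% of all genes, and *Ace*, which makes angiotensin II, and *Edn1*, endothelin-1, higher from 2 UMIs each, beside 4.02%. Neither *Nos3* (53.5 and 54.4 CPM) nor *Ace* (85.6 and 88.4) was called in D2-*mdx* over DBA. Of 10 genes of the list there, *Prkcdbp* was called higher and *Ptrf* lower, beside 5.68% and 7.38% of all genes. *Col15a1*, a collagen of the vascular basement membrane, was called higher in both, 143 and 356 CPM in B10 and *mdx* (1.31, 0.61 to 2.13) and 32.1 and 289 in DBA and D2-*mdx* (3.17, 1.61 to 5.46), the latter from 3 UMIs in 1 DBA cell. It was the only one of 14 basement membrane and matrix genes called in *mdx* over B10 (7.14%, beside 4.02%). Of 16 in D2-*mdx* over DBA, *Col15a1* and *Col18a1* were called higher and *Fn1* and *Mgp* lower (12.5% each, beside 5.68% and 7.38%). The list median there was -0.09. *Utrn* was called lower in D2-*mdx* over DBA (-1.01, -1.44 to -0.57) and not in *mdx* over B10 (-0.16, -0.58 to 0.30). It was 1 of 4 dystrophin complex genes that entered in D2-*mdx* over DBA (25%, beside 7.38% of all genes). With TMM factors its ratio fell short of 2-fold.

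Interferon-stimulated genes went different ways on the 2 backgrounds, a difference that was not tested. In *mdx* over B10, 8 of 19 were called lower (*Gbp2*, *Gbp4*, *Ifit1*, *Ifit3*, *Iigp1*, *Isg15*, *Stat2* and *Xaf1*) and *Ifi27l2a* higher, with a median of -0.86 beside -0.11 over all genes. The 8 called lower, beside 7.48% of all genes, became 2 at no more than 5% mitochondrial UMIs and 13 with 500 or more genes and no upper limit. In D2-*mdx* over DBA, 4 of 12 were called higher (*Ifitm3*, *Iigp1*, *Isg15* and *Rsad2*, beside 5.68% of all genes) and none lower, with a median of 1.14 beside -0.05. *Isg15*, a ubiquitin-like protein, stood at 510 CPM in B10 and 216 in *mdx*, and 10.7 in DBA and 96.4 in D2-*mdx*. *Iigp1*, an interferon-induced GTPase, stood at 895, 276, 10.7 and 168 CPM. *Ifit3* stood at 286, 76.0, 0 and 39.7 CPM. The order was thus the same for these 3, B10 the highest, DBA the lowest and the dystrophic libraries between them. *Ifitm3* differed, at 3330 and 3834 CPM in B10 and *mdx*, and at 1241 and 3502 in DBA and D2-*mdx* (interval of the log2 ratio 1.23 to 1.78).

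Per cell, the list was in the same order, with a wide spread in each library. The summed list had a median over cells of 8950 CPM in B10 (lowest 2634, highest 34292) and 5647 in *mdx* (260 to 22446), and 1647 in DBA (659 to 4369) and 4702 in D2-*mdx* (328 to 14402). The ranges of all 4 libraries overlapped. Of the B10 list UMIs, 17.7% came from the cell with the most. Antigen presentation genes went along in part: *H2-T23*, *Psmb9* and *Tap2* of 10 were called lower in *mdx* over B10 (beside 7.48% of all genes), and *H2-K1* (770 and 1881 CPM, 1.29, 0.95 to 1.65) and *Tap1* of 10 higher in D2-*mdx* over DBA (beside 5.68%). The tests these lists would need are not possible with 1 library a strain.

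A part of the stress and immediate-early genes stood higher in both dystrophic libraries. Of 19 in *mdx* over B10, *Atf3*, *Hspa1a*, *Hspa1b*, *Ier3* and *Socs3* were called higher, beside 4.02% of all genes, and none lower (median 0.60 beside -0.11). Of 18 in D2-*mdx* over DBA, *Atf3*, *Dnajb1*, *Fos*, *Gadd45g*, *Hspa1a* and *Socs3* were called higher, beside 5.68%, and none lower (median 0.71 beside -0.05). *Hspa1a*, an inducible heat shock protein, stood at 904 CPM in B10 and 2077 in *mdx*, and 332 in DBA and 1269 in D2-*mdx*. *Hspa1a* and its near copy *Hspa1b* can share reads. *Fos* stood at 707, 1378, 567 and 1651 CPM. Per cell, the list had a median of 13291 CPM in B10 and 13124 in *mdx*, and 4750 in DBA and 12110 in D2-*mdx*, so the medians of B10 and *mdx* lay close together while their upper quartiles were 13766 and 25121 CPM.

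**Figure D4:**
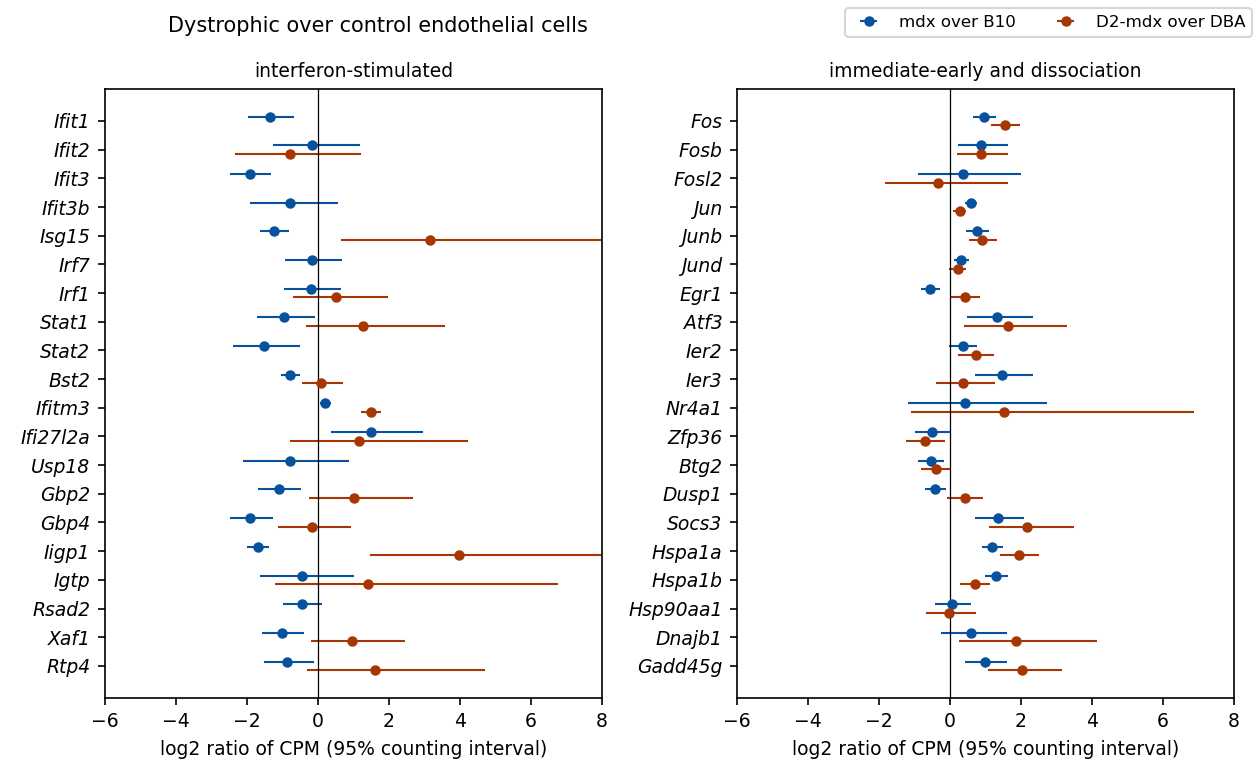
Log2 ratio of dystrophic over control CPM (horizontal axis) for the interferon-stimulated genes (left) and the immediate-early and dissociation genes (right), with 95% counting intervals; intervals are cut at 8, and a gene is drawn only for a pair in which it had UMIs in both libraries. *Iigp1* and *Isg15* lie left of 0 in *mdx* over B10 (-1.70 and -1.24) and right of it in D2-*mdx* over DBA (3.97 and 3.17), while *Hspa1a* and *Socs3* lie right of 0 in both.

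A part of the genes of contractile and matrix-forming cells stood higher in both dystrophic libraries, as did the mural markers. In the list of endothelial to mesenchymal transition, *Acta2*, *Col3a1*, *Tagln* and *Zeb2* of 8 were called higher in *mdx* over B10 (beside 4.02% of all genes), and *Acta2*, *Col3a1*, *Tagln* and *Vim* higher and *Fn1* and *Snai2* lower of 10 in D2-*mdx* over DBA (beside 5.68% and 7.38%). *Tagln*, a smooth muscle protein, had 1 UMI in each control and stood at 234 CPM in *mdx* and 356 in D2-*mdx*. *Rgs5*, the pericyte marker, stood at 71.6 and 689 CPM in B10 and *mdx*, and at 171 and 825 in DBA and D2-*mdx*. Without the cells holding 3 or more mural genes, the log2 ratio in *mdx* over B10 went from 3.27 to 0.49 for *Rgs5* and from at least 3.40 to at least 1.49 for *Acta2*, and that of *Col3a1* in D2-*mdx* over DBA went from 1.27 to -0.36. *Tagln* stood at log2 ratios of 3.42 and 4.58 without those cells. Of the 8 and 10 list members, 7 and 8 then entered, with 3 called higher in each comparison. With 3 of the 8 selecting genes required in place of 4, however, the log2 ratios in D2-*mdx* over DBA turned to -0.41 for *Tagln* and -0.25 for *Acta2*.

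Across both comparisons, 36 genes were called higher in both (22.6% of those of *mdx*, 16.1% of those of D2-*mdx*), 37 lower in both (12.5% and 12.7%) and 12 in opposite directions, of 3374 that entered both. Over all genes that entered each comparison, 4.02% were called higher and 7.48% lower in *mdx* over B10, and 5.68% and 7.38% in D2-*mdx* over DBA. The overlap was not tested. With TMM factors the 37 became fewer. *Flt1*, *Fli1*, *Smad7* and *Klf7*, among others, then fell short of 2-fold in *mdx* over B10, and *Itpkb* in D2-*mdx* over DBA. The 2 comparisons share no library. Among the 36 were *Hspa5*, a chaperone (206 and 560 CPM, and 128 and 350 CPM), *Hspe1*, *Pdia6* and *Cct3*, and *Lgals1*, a secreted galectin (71.6 and 250, and 53.5 and 365 CPM). Among the 37 were *Klf7* (627 and 292, and 642 and 229 CPM), *Itpkb* (689 and 238, and 428 and 206 CPM), *Jup*, a junction protein (501 and 216, and 396 and 173 CPM), *Gstm1* (430 and 158, and 396 and 170 CPM) and *mt-Nd3*, a mitochondrial gene (689 and 206, and 375 and 155 CPM). These 10 were named after their values were seen. All but *Cct3* had the same sign in satellite cells on both backgrounds, with log2 ratios on the B10 and DBA backgrounds of 1.21 and 0.81 for *Hspa5*, 1.41 and 0.61 for *Pdia6*, -1.67 and -0.92 for *Gstm1*, and -1.37 and -0.66 for *mt-Nd3*. The satellite ratios were smaller for *Klf7* (-0.15 and -0.20), *Itpkb* (-0.65 and -0.17) and *Jup* (-0.45 and -0.40). These 10 do not stand for all genes called in both. *Igfbp5* (-1.18 and -0.42) and *Col15a1* (-0.50 and -1.15), of the 36, were on the lower side in satellite cells. *Cttnbp2nl* (0.78 and 0.31), of the 37, was on the higher side there. The signs were not counted over all 36 and 37. The median mitochondrial share was also lower in the dystrophic cells, and its part in the lower genes was not tested.

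The comparison with the most cells is that of the 2 dystrophic libraries, with 264 and 102 cells. It crosses strains as well as severity, and it shares its libraries with the comparisons above. In D2-*mdx* over *mdx*, 64 of 3557 genes were called higher (1.8%) and 83 lower (2.33%). The selecting genes differed little: *Cdh5* (log2 ratio -0.12, interval -0.22 to -0.02), *Pecam1* (0.03, -0.08 to 0.15), *Gpihbp1* (0.05, -0.03 to 0.14), *Egfl7* (0.03, -0.07 to 0.13), *Kdr* (-0.25, -0.38 to -0.13), *Emcn* (0.32, 0.18 to 0.46) and *Flt1* (-0.42, -0.54 to -0.31) were all within 2-fold. *Cldn5*, the claudin of tight junctions, was the exception at 401 CPM in *mdx* and 870 in D2-*mdx* (1.12, 0.98 to 1.26), with a UMI in 201 of 264 and 82 of 102 cells. It stood at 448 CPM in B10 and 835 in DBA.

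The genes higher in D2-*mdx* included *Rbp7*, a retinol-binding protein of capillaries, at 301 and 1305 CPM (2.12, 1.98 to 2.25), *Plvap* at 246 and 567 CPM (1.20, 1.03 to 1.38), *Angptl4*, an inhibitor of lipoprotein lipase, at 46.8 and 102 CPM (1.12, 0.71 to 1.54), and *H2-D1* at 1942 and 4271 CPM (1.14, 1.07 to 1.20). *Rbp7* differed the same way in the controls, by less, with 403 CPM in B10, though in 2 of 13 cells, and 1209 CPM in DBA in 7 of 8 cells. *Plvap* was not, at 188 and 10.7 CPM. *Col18a1*, a vascular basement membrane collagen, was called higher too (1.12, 0.62 to 1.61), as were *Col3a1* and *Igfbp5*, which mural cells also express. *Col3a1* was no longer called without the cells holding 3 or more mural genes (0.49).

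The genes lower in D2-*mdx* included *Klf2*, as 1 of 11 shear-responsive genes, and *Id1* and *Id2*, as 2 of 12 genes of the BMP and TGF-beta pathway, beside 2.33% of all genes. *Klf2*, the shear-responsive factor, stood at 1497 CPM in *mdx* and 634 in D2-*mdx* (-1.24, -1.37 to -1.11), with 1763 in B10 and 1156 in DBA. Its relative *Klf4* stood at 659 and 333 CPM and fell just short of 2-fold (-0.98, -1.17 to -0.80). *Id1*, a target of BMP signals, stood at 1458 and 625 CPM (-1.22, -1.36 to -1.09) and *Id2* at 97.5 and 43.1. *Lpl* stood at 694 and 342 CPM (-1.02, -1.20 to -0.84), while its log2 ratio was 0.90 in mural and 2.82 in satellite cells. *Pdgfb* (140 and 56.7 CPM), *Hey1* (109 and 53.3 CPM) and *Cdkn1a*, a brake of the cell cycle (244 and 94.1 CPM, -1.37, -1.72 to -1.04), were lower as well. Of 16 interferon-stimulated genes, 6 were called lower, beside 2.33% of all genes, and none higher: *Bst2* (696 and 345 CPM, -1.01, -1.20 to -0.84), *Ifi27l2a*, *Ifit2*, *Irf7*, *Isg15* and *Rsad2*. With levels taken as a mean per cell, 2 of the list were called lower. *Selp* was lower at 81.2 and 19.3 CPM, from 13 and 5 cells. No member of the receptor, transcription factor or immediate-early lists was called.

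**Figure D5:**
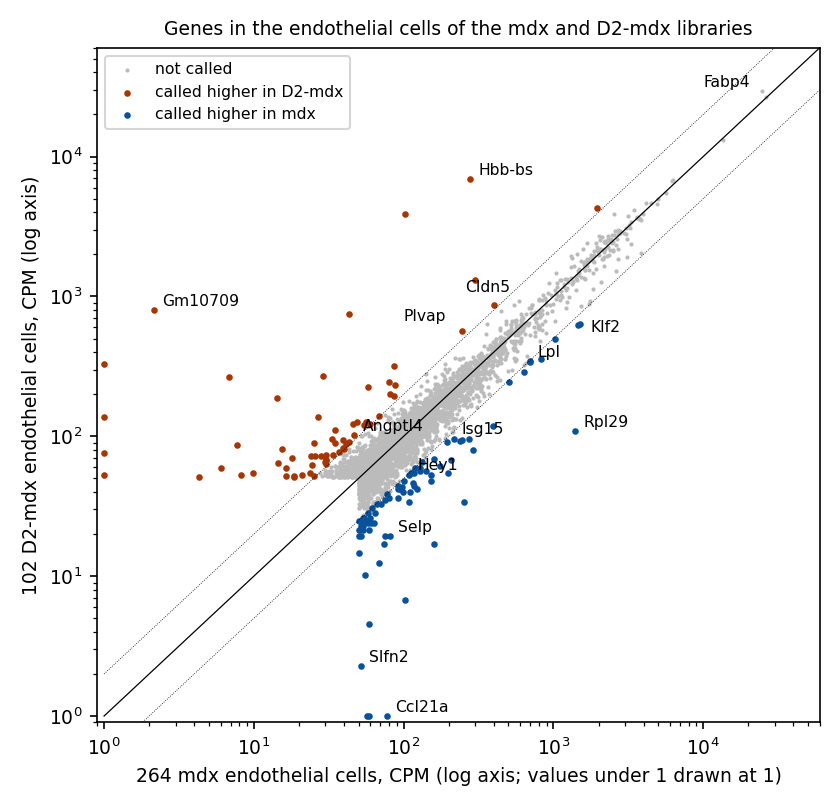
Level of each gene in the 264 *mdx* (horizontal axis) and 102 D2-*mdx* endothelial cells (vertical axis), in CPM on log axes with values under 1 drawn at 1; the solid line marks equal levels and the dotted lines 2-fold. *Gm10709*, *Hbb-bs*, *Cldn5* and *Plvap* lie above the band, *Klf2*, *Isg15*, *Slfn2* and *Rpl29* below it, and *Fabp4* on the line.

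Part of these differences had the same direction in DBA over B10. The 10 highest ratios were led by *Gm10709*, a processed pseudogene on chromosome 9 (chr9:7751725-7752204, GRCm38), at 2.15 CPM in *mdx* and 804 in D2-*mdx*, and among the lowest was *Rpl29*, a ribosomal protein gene (chr9:106429454-106431568), at 1398 and 109 CPM. *Gm10709* stood at 0 CPM in B10 and 514 in DBA, and *Rpl29* at 1101 and 85.6. Pseudogenes and ribosomal protein genes have near-identical copies between which reads can be split, so such levels are uncertain, and the part of sequence differences between the strains was not tested. *Trim12a* and *Nxpe4* had no UMI in DBA or D2-*mdx* and 6 each in B10, and stood at 58.4 and 56.7 CPM in *mdx* (log2 ratios of at most -4.10 and -4.06 against 3 UMIs). *Slfn2* stood at 80.6, 52.0, 0 and 2.27 CPM in B10, *mdx*, DBA and D2-*mdx*. *6330403K07Rik* was at 0 in B10 and *mdx* and at 74.9 and 76.0 CPM in DBA and D2-*mdx*.

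Over all called genes with 10 or more UMIs in the B10 and DBA cells together, 21 of 26 called higher in D2-*mdx* were also on the higher side in DBA over B10 (80.8%), against 48.0% of 1333 genes with any higher level, and 51 of 60 called lower were on the lower side (85%), against 61.8% of 1697. The pairs D2-*mdx* with *mdx* and DBA with B10 share no library, and the controls have 8 and 13 cells. The genes set beside the called ones were not matched for the size of their ratio, so these shares are a description. Strain cannot be told apart from age, pool of mice, sort and library here. In other cells of the dystrophic libraries, 10 of the 64 higher genes were called the same way in both mural and satellite cells (15.6%) and 5 in one of them, while 27 of the 64 entered in both. Of the 83 lower genes, 4 were called so in both (4.82%) and 8 in one, while 18 entered in both. *Klf2* entered in both without a call, with log2 ratios of -0.79 in mural and 0.00 in satellite cells. *Cldn5*, *Plvap* and *Rbp7* were too low in the other cells to enter.

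Some of the called genes rested on 1 cell. All 179 UMIs of *Ccl21a*, a chemokine of lymphatic endothelium, came from 1 *mdx* cell. In the same library, 53.6% of the UMIs of *Myog*, a factor of muscle differentiation, and 74.3% of those of *Actc1*, an embryonic muscle actin, came from the cell with the most of each. *Mgp* in DBA (1659 CPM) came by 99.4% from 1 of 8 cells. *Mki67*, a gene of cycling cells, had UMIs in 0 of 13 B10 cells, 7 of 264 *mdx* cells, 0 of 8 DBA cells and 3 of 102 D2-*mdx* cells. A cell without such a UMI may still be cycling, so these counts do not give the share of cycling cells.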

How the data were processed

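The authors deposited, for each of the 4 libraries (10X 3′ v3.1), a matrix of counts, whole UMIs per gene and barcode, not normalized. The submitters' processing notes name Cell Ranger 3.0.1 and mm10. Barcodes were taken as deposited within 1000 to 5000 genes and at most 8% mt- UMIs, and the counts of the endothelial cells were summed per library and divided by their total (CPM). No gene test was run, since each strain has 1 library. Ratios carry an exact binomial interval, levels an exact Poisson interval and shares an exact Clopper-Pearson interval, all 95%, for counting error only.

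The members and the gene lists were chosen with earlier results of these data known. All 439 listed genes were found, 434 by symbol and 5 by identifier. Named genes were those of the selection and sort, the most abundant and the called members of each list, the 10 highest and lowest ratios of each comparison, the leading genes of clusters and the most abundant genes. *Rbp7*, *Pdgfb* and the genes said to be chosen from both comparisons lie outside that rule and were named after their values were seen. The comparison of DBA with B10, with its minimum of 10 UMIs, was also added after seeing the data.

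Mural cells had 3 or more of 8 mural genes and, like satellite cells, fewer than 2 of the selecting genes. Cells were clustered with Leiden (leidenalg 0.10.2) on 1500 variable genes, 15 principal components and 15 neighbours at resolution 0.5. Doublets were scored against simulated pairs and not removed: the highest scores marked 1 of 13, 18 of 264, 0 of 8 and 6 of 102 endothelial cells. Python 3.11.15, SciPy 1.17.1 and scikit-learn 1.9.0 were used, with edgeR 4.0.16 and DESeq2 1.42.0 for scaling factors alone. Ratios, intervals and calls were tested on simulated counts without spread between cells, which checks the handling of counting error alone. Alternatives changed the marker number, the limits on cells, mural and *Pax7* cells, doublets, scaling, the minimum level and the clustering. Left out as chosen after seeing the data were, in turn, the haemoglobin genes, the haemoglobin-rich cell and calls on fewer than 3 cells.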

Additional observations from a re-analysis of the deposited data

Results flagged for a closer look

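For 12 genes the calls against the controls, *mdx* over B10 on one background and D2-*mdx* over DBA on the other, went in opposite directions. The difference between the comparisons was not tested, since each rests on 1 library a strain. *Isg15* (-1.24 in *mdx* over B10 and 3.17 in D2-*mdx* over DBA, log2), *Iigp1* (-1.70 and 3.97), *Lgals3*, a galectin (-2.43 and 1.68), and *Ciapin1* (called lower, and 1.91) were lower in *mdx* and higher in D2-*mdx*. The first 2 had 1 UMI each in DBA, *Ciapin1* had 2 and *Lgals3* 4. *Hey1* (2.60 and -1.49), *Stmn2* (1.30 and -1.42), *Rftn1*, a lipid raft protein (3.93 and -1.12), *Gas1* (at least 1.06 and -1.11) and the pseudogene-like *Gm10076* (2.85 and -1.34) were higher in *mdx* and lower in D2-*mdx*, with 0 to 8 UMIs in B10. The same was true of *Hba-a1* (3.51 and -3.21), *Hba-a2* (3.14 and -1.32) and *Hbb-bs* (at least 3.37 and -2.54), whose DBA UMIs all came from 1 cell.

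Outside the limits on genes and mitochondrial share, a further 7 barcodes of B10, 17 of *mdx*, 0 of DBA and 15 of D2-*mdx* met the marker part of the selection. Of these 39, 22 had more than 5000 genes, 5 fewer than 1000 and 14 more than 8% mitochondrial UMIs, and 9 of the 22 had 3 or more mural genes.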

How the results depend on the processing

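No paired analysis was possible because each strain has 1 library, and no replicate could be left out for the same reason. Both dystrophic shares of endothelial cells lay above both control shares under all settings run. With 3 of 8 genes required, the DBA share (11 of 3370 barcodes) lay above that of B10 (13 of 4762). The D2-*mdx* share was 2.07% at that setting and 1.37% without cells of 3 or more mural genes. In *mdx* over B10 the genes called higher numbered 102 at no more than 5% mitochondrial UMIs (with 56 of the 159 among them), 255 with TMM factors, 290 as a mean of per-cell levels and 92 at a minimum of 100 CPM, where 153 were lower. In D2-*mdx* over *mdx*, 146 were higher with 3 of 8 genes required (58.4% of calls, against 43.5%). At minima of 20 and 100 CPM and none, 176, 28 and 272 were higher and 185, 39 and 293 lower. At 100 CPM, endothelial over mural calls were 423 higher and 354 lower in *mdx* and 366 and 323 in D2-*mdx*, and those over satellite cells 572 and 290, and 487 and 267. Interferon-stimulated genes called lower in *mdx* over B10 were 8, but 13 with 500 or more genes and no upper limit and 2 at no more than 5% mitochondrial UMIs. Those called higher in D2-*mdx* over DBA were 4, but 2 at 100 CPM, and those lower in D2-*mdx* over *mdx* 6, but 2 as a mean per cell. Immediate-early genes higher in *mdx* over B10 were 5, but 8 with 3 of 8 genes required, with TMM factors and without high doublet scores. At resolution 0.3 there were 3 clusters in place of 5, and no cluster matched the venous-like one. In *mdx* cells alone there were 3 as well. The venous-like cluster held 22.7% of *mdx* and 6.86% of D2-*mdx* cells, but 27.7% and 30.4% with genes centred within each library. With TMM factors, *Flt1* and *Fli1* fell short of 2-fold in both comparisons with a control. So did *Tcf15*, *Sox7* and *Smad7* in *mdx* over B10, and *Kdr* and *Utrn* in D2-*mdx* over DBA. The causes were not tested.

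Of 162 results for named genes, 155 kept their sign in every alternative run. Those that turned were all in D2-*mdx* over DBA: *Acta2* (-0.25), *Tagln* (-0.41) and *Igfbp5* (-0.80) with 3 of 8 genes required, *Col3a1* (-0.36) without cells of 3 or more mural genes, *Hba-a1* (at least 6.72) and *Hbb-bt* (at least 2.88), which had no DBA UMI without the haemoglobin-rich cell, and *Mgp*, 2.84 at no more than 5% mitochondrial UMIs and 3.10 with no *Pax7* UMI. *Hbb-bs* and *Hba-a2* in that comparison were not among the 162 results. All their DBA UMIs came from the haemoglobin-rich cell too, so without it DBA had none and D2-*mdx* was the higher library. The 13 B10 and 8 DBA cells limit every comparison with a control. A gene with no UMI there was set to 26.9 CPM in B10 and 32.1 in DBA for its ratio, the level of 3 UMIs. Its true level may lie above that.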
